A study of Bombyx mori with 2 samples.

Results

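The homeobox and homeotic genes of the silkworm head were taken as every gene model whose BLAST name holds the word homeobox, homeotic, homeodomain or paired box. This rule found 82 of the 12376 gene models with an expression value, and it used names only. The names come from 56 different BLAST hits, 78 models have a hit in the silkworm *Bombyx mori* and 4 have one in another species. By name, 73 models belong to homeodomain or paired box families, 8 are proteins named after homeotic phenotypes or homeodomain partners that have no homeodomain themselves or are not known to have one, and 1, *BGIBMGA002566*, has only a weak match to a mammalian protein.

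Digital gene expression (DGE) libraries had been made from heads of 2nd instar larvae shortly before the molt. One library came from the *nm2* strain, whose larvae fail to molt in this instar, and 1 library from the wildtype strain C603, each from a pool of 6 larvae. The study connects the mutant with a lesion of the cuticular protein gene *BmCPG10*. No agent was given to either strain, and all larvae ate mulberry leaves under the same rearing conditions.

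The values are FPKM, fragments scaled to gene length and library size, so levels of different genes can be set beside each other. Differences are log2((*nm2* + 1)/(C603 + 1)), and a positive value means higher in *nm2*. A model counts as higher or lower here if its log2 difference was 1 or more in size and its level was at least 5 FPKM in one of the libraries. With 1 library per strain no test was possible, and no difference given here has a replicate check. The strain cannot be told apart from the pool, the library or the exact developmental time of its larvae.

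Homeobox genes encode transcription factors that bind DNA through the homeodomain. They set the identity of body segments, appendages and cell types in the embryo, and many stay active in larval tissues, where neurons, sensory organs, muscles and the epidermis keep the identities they were given. The Hox genes lie in a cluster and mark positions from head to tail, TALE class proteins such as Homothorax bind DNA together with Hox proteins, and the PRD, LIM and CUT classes include many regulators of eye, brain and sense organ development.

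The clean reads numbered 12900347 in the *nm2* library and 12912619 in the C603 library, and 60.12% of the *nm2* reads and 55.48% of the C603 reads aligned to genes. Tissue markers can be read against the 23.8% of all gene models at 5 FPKM or more that were higher or lower by the rule above. Cuticular protein genes of the epidermis summed to 120583.6 FPKM in *nm2* against 42260.3 FPKM in C603, with 40 higher and 26 lower of the 82 at 5 FPKM or more. Fat body markers summed to 36223.8 FPKM in *nm2* and 14414.5 FPKM in C603, with 16 higher and 3 lower of 26. Muscle markers summed to 19388.6 FPKM in *nm2* and 27614.3 FPKM in C603, with 0 higher and 1 lower of 17. Neuronal markers summed to 155.1 FPKM in *nm2* and 174.7 FPKM in C603, with 1 higher and 1 lower of the 8 at 5 FPKM or more, and 3 of the 30 were at 0 in *nm2* and 4 in C603. These were matched by name, so the list also holds models that may not be neuronal. An example is extended synaptotagmin-2-A-like, with 48.45 FPKM in *nm2* and 41.13 FPKM in C603. Silk gland markers summed to 7737.4 FPKM in *nm2* and 5899.2 FPKM in C603, with 0 higher and 1 lower of 6. The lower one was fibroinase precursor, matched through the word fibroin, with 402.37 FPKM in *nm2* and 1057.53 FPKM in C603. The other lists were matched by name too. Fibrohexamerin-like thus stands among the fat body markers, and non-muscle-like myosin heavy chains among the muscle markers. Midgut markers, matched as vacuolar ATPase and peritrophin names, summed to 6138.5 FPKM in *nm2* and 5849.4 FPKM in C603. Of the 18 midgut models at 5 FPKM or more, 1 was higher and 1 lower. The part of these tissues in the values below was not tested. In a whole head, fewer cells of a type and less RNA per cell cannot be told apart.

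Most of these regulators were weakly expressed. The median of the 82 models was 2.37 FPKM in *nm2* and 3.48 FPKM in C603, where all gene models had medians of 9.86 FPKM in *nm2* and 11.98 FPKM in C603. No model was at 0 in both libraries, but the same holds for all 12376 gene models listed. Homeobox genes without reads in both libraries therefore cannot appear here. Of the 8 models listed at 0 in *nm2* the highest had 5.33 FPKM in C603, and of the 10 listed at 0 in C603 the highest had 3.42 FPKM in *nm2*. Of all 12376 gene models, 625 were at 0 in *nm2* only and 520 in C603 only. These counts were not matched for expression level, so they do not show whether the homeobox models differ. A value of 0 says that a gene was not seen at this depth. A gene of 1000 effective bases has about 4.05 reads per FPKM in the *nm2* library and 3.76 in the C603 library, as recovered from the whole-number steps of the FPKM values.

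In all, 37 models reached 5 FPKM, and 9 of them were lower in *nm2* (24.3%) and 4 higher (10.8%). The 4 include a labial-like pair with identical values, and counted once it leaves 9 lower and 3 higher of 36. Of the lower models only *BGIBMGA004885*, *BGIBMGA002946* and *BGIBMGA012988* reached 5 FPKM in both libraries, and of the higher ones only *BGIBMGA002566*. The others passed the minimum of 5 FPKM only through the library in which they were higher. Among all 9158 gene models at that level, 15.0% were lower, 8.83% were higher and 23.8% were either, and with the median gene set to a log2 difference of 0 these shares became 9.96% lower and 12.3% higher, with 8 lower and 5 higher among the homeobox models. In the 6678 gene models with a highest value from 5 to under 50 FPKM, 13.9% were lower and 7.2% were higher. The 68 models at 1 FPKM or more had a median log2 difference of -0.49, against -0.28 for all gene models at that level, and 63.2% of them lay below 0, against 65.4% of all. From 1 FPKM on, 12 of the 68 models were lower by 2-fold or more and 10 were higher, against 15.3% and 9.55% of all gene models. With 1 library per strain these shares do not show whether the homeobox genes differ from the gene set as a whole.

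**Figure D1:**
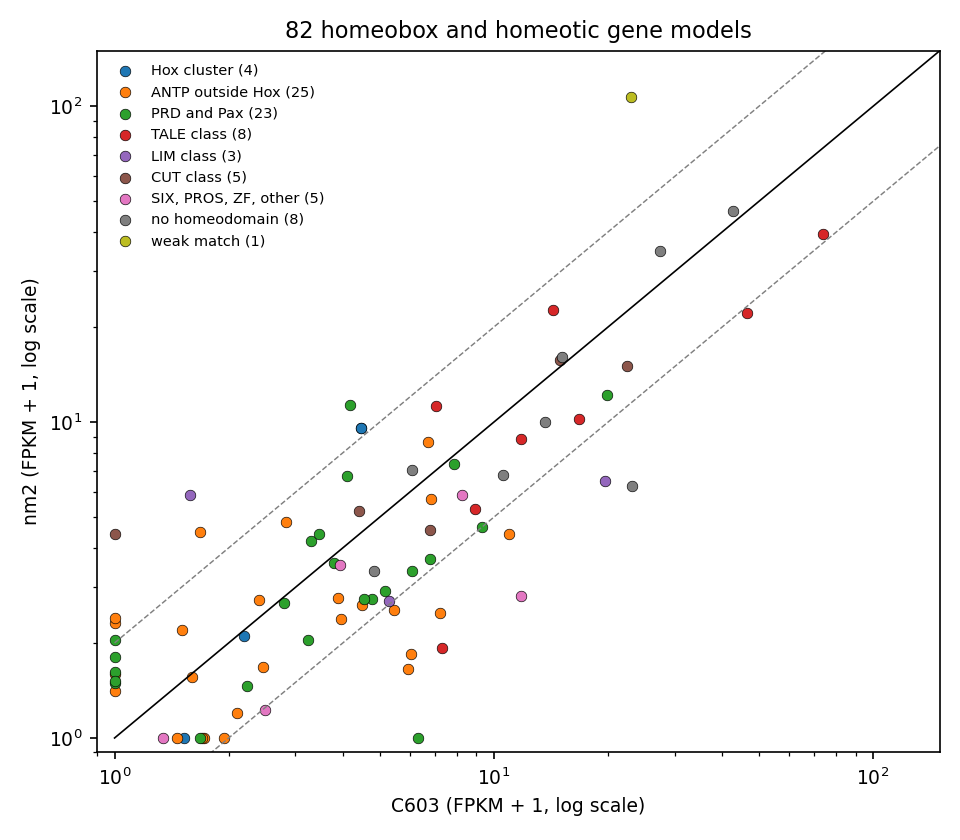
FPKM + 1 of the 82 models in *nm2* (vertical, log scale) against C603 (horizontal, log scale), 1 point per model and 1 colour per class, with the number of models in parentheses. The solid line marks equal values and the dashed lines a 2-fold difference. The weak match *BGIBMGA002566* lies alone at 105.85 FPKM in *nm2*, and most models lie below 10 FPKM in both libraries.

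The Hox genes found by the rule were *labial* and *proboscipedia*, which act in the insect head. The labial-like models *BGIBMGA014283* and *BGIBMGA014479*, each had 8.56 FPKM in *nm2* and 3.46 FPKM in C603, a log2 difference of 1.10. They have the same BLAST hit and the same e-value, and they were the only models among the 82 with identical values. They can be 1 gene entered under 2 identifiers, so they count as 1 observation. *proboscipedia*, which specifies mouthparts in *Drosophila*, was near the limit of detection, with 1.11 FPKM in *nm2* and 1.20 FPKM in C603 for *BGIBMGA006399*, and 0 in *nm2* and 0.52 FPKM in C603 for *BGIBMGA006400*.

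Other genes of the cluster carry BLAST names without the word homeobox and were added by hand after values had been seen. *Deformed* and *Sex combs reduced*, which pattern the jaws and the labium, were as low as *proboscipedia*. *Sex combs reduced* had 1.26 FPKM in *nm2* and 1.69 FPKM in C603, and neither *Deformed* model, *BGIBMGA006485* and *BGIBMGA006486*, passed 1.02 FPKM. The Hox genes of the trunk were more abundant than those of the jaws in both libraries. *Antennapedia*, the gene of thoracic identity, had 7.06 FPKM in *nm2* and 29.47 FPKM in C603 for *BGIBMGA006392*, a log2 difference of -1.92. This is about 8 reads in *nm2* and 31 reads in C603, a 4.17-fold difference with a 95% interval of 1.88 to 10.5, which covers counting error only. Coding lengths, and with them reads and intervals, were at hand only for genes in the authors' list of differing genes, so such an interval is no independent sign of a difference. The next model, *BGIBMGA006391*, whose hit is an Antennapedia-like protein of a butterfly, had 13.81 FPKM in *nm2* and 27.27 FPKM in C603. *Ultrabithorax* (*BGIBMGA006389*) had 7.41 FPKM in *nm2* and 15.35 FPKM in C603, and *abdominal-A* (*BGIBMGA006386*), the abdominal gene, had 15.99 FPKM in *nm2* and 12.70 FPKM in C603. So *Antennapedia* and *Ultrabithorax* had lower values in *nm2*, while *abdominal-A* and *labial* had higher ones. In the RefSeq gene order of a newer silkworm assembly no gene lies between *Antennapedia* and *Ultrabithorax*. The cells that gave the trunk Hox reads in head libraries were not identified. Silk gland and midgut markers also had reads in both libraries, and the part of those tissues in these values was not tested.

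**Figure D2:**
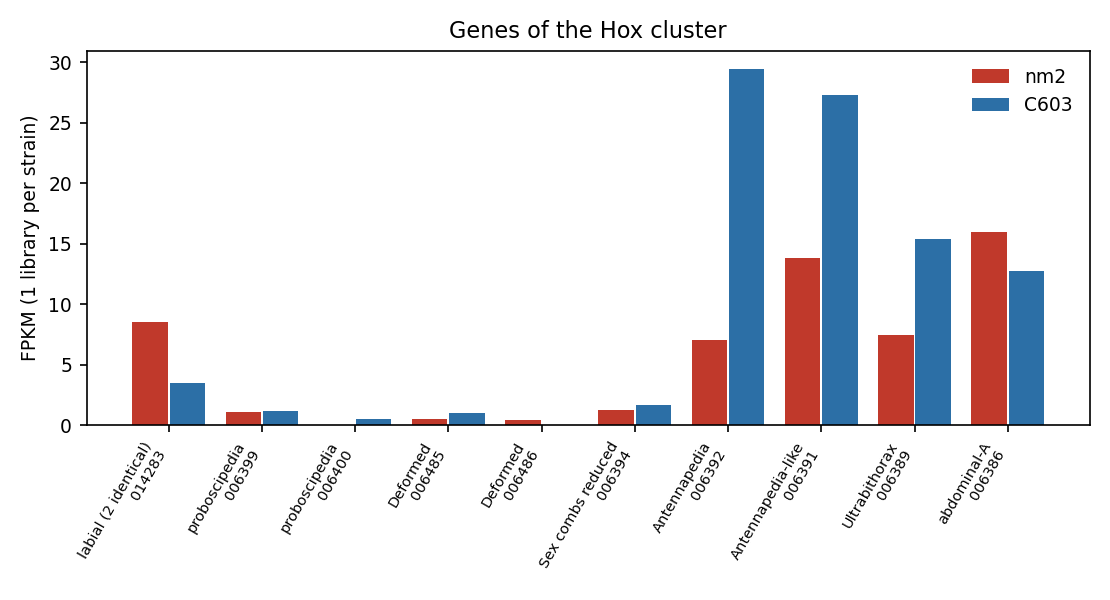
FPKM of the Hox cluster genes in *nm2* (red) and C603 (blue), 1 library per strain and therefore without error bars, from the genes of the head on the left to those of the abdomen on the right. The labial-like bars stand for 2 models with identical values, and *Antennapedia* shows the widest gap, with 7.06 FPKM in *nm2* and 29.47 FPKM in C603.

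The TALE class gave the most abundant homeodomain genes. Homothorax, the partner that brings Extradenticle into the nucleus and sharpens the DNA choice of Hox proteins, was represented by neighbouring models with different hits. The homothorax-like model *BGIBMGA004886* had 38.44 FPKM in *nm2* and 72.75 FPKM in C603, the highest value of any model in C603, with a log2 difference of -0.90 just short of the limit. The model next to it in identifier, *BGIBMGA004885*, which was named after its penguin hit Meis2, the vertebrate relative of Homothorax, had 21.18 FPKM in *nm2* and 45.64 FPKM in C603 and counted as lower with -1.07, which became -0.80 and no longer counted with the median gene set to 0. A further homothorax-like model, *BGIBMGA000751*, named after a housefly hit, went the other way, with 21.68 FPKM in *nm2* and 13.35 FPKM in C603, a difference of 0.66. Its neighbour *BGIBMGA000750*, named homothorax without the word homeobox, had 2.86 FPKM in *nm2* and 3.08 FPKM in C603. The deposited table does not say which of these models belong to one gene.

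Mohawk-like (*BGIBMGA003176*), named after a vertebrate regulator of tendon cells, had 0.93 FPKM in *nm2* and 6.32 FPKM in C603, and its log2 difference of -1.92 was the largest of the class. The PKNOX2-like model *BGIBMGA011254*, a relative of Homothorax, had 4.32 FPKM in *nm2* and 7.91 FPKM in C603. The Iroquois genes, which prepattern sensory bristles in *Drosophila*, stayed within 2-fold. Caupolican-like (*BGIBMGA000639*) had 9.22 FPKM in *nm2* and 15.76 FPKM in C603. The araucan-like models had 10.26 FPKM in *nm2* and 6.03 FPKM in C603 (*BGIBMGA000637*) and 7.82 FPKM in *nm2* and 10.78 FPKM in C603 (*BGIBMGA000638*), opposite in direction although they share a hit. All 8 TALE models passed 5 FPKM in a library, 2 were lower and 0 higher (25.0%, against 23.8% of all gene models), and their median log2 difference was -0.73, or -0.48 with the median gene set to 0.

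The ANTP class outside the Hox cluster holds genes that divide the embryo into head regions, segments and compartments. The empty spiracles-like model *BGIBMGA010749*, named after a head gap gene of *Drosophila*, had 0.85 FPKM in *nm2* and 5.04 FPKM in C603, a log2 difference of -1.71, and TPM scaling took it under 5 FPKM. The model beside it in identifier, *BGIBMGA010750*, named after an empty spiracles-like protein of a wasp without the word homeotic or homeobox, was listed at 0 in *nm2* and at 2.13 FPKM in C603. CDX-2-like (*BGIBMGA010300*), a relative of the posterior gene *caudal*, had 3.42 FPKM in *nm2* and 9.95 FPKM in C603, a difference of -1.31. Both caudal-like models, which the rule did not take in, lay on the other side, with 17.63 FPKM in *nm2* and 5.85 FPKM in C603 for *BGIBMGA001180* and 10.06 FPKM in *nm2* and 5.0 FPKM in C603 for *BGIBMGA001179*.

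Engrailed, the selector of posterior compartments, split into models of opposite direction. *BGIBMGA009798* had 1.48 FPKM in *nm2* and 6.20 FPKM in C603 and counted as lower with -1.54, whereas *BGIBMGA009797*, with the same hit, had 3.49 FPKM in *nm2* and 0.68 FPKM in C603, a difference of 1.42. Invected, the paralog of Engrailed, had 1.19 FPKM in *nm2* and 0.51 FPKM in C603 for *BGIBMGA009643*, and 1.32 FPKM in *nm2* and 0 in C603 for *BGIBMGA009644*. All of these levels are low, and no direction of the engrailed pair as a whole can be given.

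Regulators of appendages differed by model as well. The aristaless-like model *BGIBMGA006008*, named after the gene that patterns the tips of antennae and legs in *Drosophila*, had 10.32 FPKM in *nm2* and 3.18 FPKM in C603, and with a log2 difference of 1.44 it stood highest in *nm2* of the models with a silkworm hit that passed the limit. The other 3 aristaless-like models, *BGIBMGA006006*, *BGIBMGA006007* and *BGIBMGA014549*, were lower in *nm2* by less than 2-fold on this scale and had at most 1.04 FPKM in *nm2* and 2.24 FPKM in C603. Distal-less, the gene of limb outgrowth, had 1.78 FPKM in *nm2* and 2.88 FPKM in C603.

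Prospero, which ends self-renewal in dividing neural cells of *Drosophila*, was covered by 3 adjacent identifiers. *BGIBMGA005085* had 1.82 FPKM in *nm2* and 10.81 FPKM in C603, a log2 difference of -2.07. *BGIBMGA005084*, named prospero after a mosquito hit and outside the rule, had 0.50 FPKM in *nm2* and 7.01 FPKM in C603, and *BGIBMGA005083* had 2.52 FPKM in *nm2* and 2.94 FPKM in C603. So 2 of the 3 prospero models were far lower in *nm2* and 1 was nearly level. The models matched by neuronal names went both ways, with 11 above 0 and 12 below at 1 FPKM or more. Some of them, such as syntaxin-17-like and the CUGBP Elav-like models, may not be neuronal. Synaptotagmin I (*BGIBMGA010356*) had 2.34 FPKM in *nm2* and 5.47 FPKM in C603. Elav-like, a pan-neuronal RNA-binding protein of *Drosophila*, had 4.78 FPKM in *nm2* and 17.74 FPKM in C603 for *BGIBMGA005888*, but 1.68 FPKM in *nm2* and 1.03 FPKM in C603 for *BGIBMGA013823*, and CUGBP Elav-like 1 (*BGIBMGA010430*) had 5.13 FPKM in *nm2* and 1.84 FPKM in C603.

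The LIM homeodomain genes, which assign identities to motor and interneurons, differed in direction. Lhx1-like was lower in *nm2* in both models, with 5.52 FPKM in *nm2* and 18.70 FPKM in C603 for *BGIBMGA012988* (log2 difference -1.60) and 1.71 FPKM in *nm2* and 4.30 FPKM in C603 for *BGIBMGA012987*. Lhx3-like (*BGIBMGA003208*) had 4.86 FPKM in *nm2* and 0.58 FPKM in C603, a difference of 1.89 that did not count because both values were under 5 FPKM. With the median gene set to 0 or with the scaling on housekeeping genes it passed that limit and counted as higher, with 2.13 and 1.94. The LIM domain-binding protein 2-like gene *BGIBMGA012202*, the common cofactor of LIM homeodomain proteins, had 63.51 FPKM in *nm2* and 135.32 FPKM in C603, a difference of -1.08, the only 1 of 5 Hox and LIM cofactors at 5 FPKM or more that counted as different.

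Pax-8-like, a Pax gene known from the vertebrate thyroid and kidney, had 3 models with 1 hit, all lower in *nm2*. *BGIBMGA013357* was listed at 0 in *nm2* and at 5.33 FPKM in C603, so only its value in C603 brought it over the limit, and TPM scaling took it under 5 FPKM. *BGIBMGA013358* had 11.18 FPKM in *nm2* and 18.92 FPKM in C603, and *BGIBMGA013359* had 1.76 FPKM in *nm2* and 3.55 FPKM in C603, both within 2-fold on the log2 scale used here. Pax-6-like (*BGIBMGA009545*), the eye selector gene, pointed the other way, with 5.76 FPKM in *nm2* and 3.10 FPKM in C603. Pax-1-like (*BGIBMGA000787*) had 1.75 FPKM in *nm2* and 3.76 FPKM in C603.

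Other eye and brain genes lay close to the limit or under 5 FPKM. Rx3-like (*BGIBMGA007802*), a relative of the retinal gene Rx, had 3.66 FPKM in *nm2* and 8.30 FPKM in C603, and its difference of -0.997 missed the limit by the third decimal. Rx-like (*BGIBMGA007472*) had 3.20 FPKM in *nm2* and 2.30 FPKM in C603, and Rx2-like (*BGIBMGA013940*) 0.51 FPKM in *nm2* and 0 in C603. Orthopedia-like, named after a regulator of neuroendocrine neurons in vertebrates, had 2.68 FPKM in *nm2* and 5.77 FPKM in C603 for *BGIBMGA013948*, and unc-4-like (*BGIBMGA005619*), a motor neuron gene in *Caenorhabditis elegans*, had 2.37 FPKM in *nm2* and 5.10 FPKM in C603. These differences of -0.88 and -0.86 were the next outside the limit after the homothorax-like model. The models just inside it were Meis2 at -1.07 and labial-like at 1.10.

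The visual system homeobox 2-like gene, a retinal progenitor gene of vertebrates, had 4 models with between 0.62 and 3.42 FPKM in *nm2* and between 0 and 2.78 FPKM in C603. Pituitary homeobox 1 had 6.35 FPKM in *nm2* and 6.84 FPKM in C603 for *BGIBMGA010418* and 1.93 FPKM in *nm2* and 4.16 FPKM in C603 for *BGIBMGA010417*. SIX4-like (*BGIBMGA000091*) had 0.23 FPKM in *nm2* and 1.49 FPKM in C603. The sine oculis-like gene *BGIBMGA000156*, a gene of the *Drosophila* eye, carries no homeobox in its name and had 14.92 FPKM in *nm2* and 26.12 FPKM in C603. The remaining models of the PRD class, goosecoid-like and the other orthopedia-like ones, had at most 1.67 FPKM in *nm2* and 1.80 FPKM in C603. Of the 8 PRD and Pax models at 5 FPKM or more, 1 was higher and 1 lower, and the median log2 difference of the 18 at 1 FPKM or more was -0.64.

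Genes of the mesoderm were weakly expressed. Bagpipe, which directs visceral muscle formation in *Drosophila*, had 0.65 FPKM in *nm2* and 4.93 FPKM in C603 for *BGIBMGA010706*, a log2 difference of -1.85, and 1.63 FPKM in *nm2* and 3.50 FPKM in C603 for *BGIBMGA010705*. Nkx-2.3-like (*BGIBMGA010704*), which lies beside bagpipe in the RefSeq gene order with no gene between, had 0.20 FPKM in *nm2* and 1.10 FPKM in C603. The nearby LBX1-like models, found by hand, had 0.64 FPKM in *nm2* and 0.69 FPKM in C603 (*BGIBMGA010708*) and 0 in *nm2* and 2.11 FPKM in C603 (*BGIBMGA010709*). All 5 models of this NK gene neighbourhood thus had lower values in *nm2*, none of them above 4.93 FPKM, but the ratio of *BGIBMGA010708*, 0.928, is the one that equal read numbers give. The muscle segmentation homeobox-like gene *BGIBMGA014516* had 7.68 FPKM in *nm2* and 5.72 FPKM in C603.

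The remaining models of the ANTP class stayed under 5 FPKM in both libraries but for 1. Pancreas/duodenum homeobox 1-like (*BGIBMGA003264*) had 4.70 FPKM in *nm2* and 5.84 FPKM in C603. Unplugged-like (*BGIBMGA003233*), a tracheal and brain gene of *Drosophila*, had 1.55 FPKM in *nm2* and 4.45 FPKM in C603, HMX3-B-like (*BGIBMGA010033*) had 3.83 FPKM in *nm2* and 1.83 FPKM in C603, and B-H1-like (*BGIBMGA012499*) had 1.40 FPKM in *nm2* and 0 in C603. The other models, among them those named after DBX1, Nkx-6.2, MOX-2 and pv.1, had at most 1.73 FPKM in *nm2* and 2.96 FPKM in C603. In the ANTP class outside the Hox cluster, 3 of the 5 models at 5 FPKM or more were lower and 0 higher. Of all gene models at that level 15.0% were lower and 8.83% higher. With genes of other names, 3 of 7 models of the class were lower and 1 higher. Among the lower ones, engrailed-like *BGIBMGA009798* shares its hit with a model that went the other way. The median log2 difference of the 18 models at 1 FPKM or more was -0.52, with 7 above 0 and 11 below.

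Cut, which gives external sense organs their identity in *Drosophila*, was covered by 5 consecutive models with the same hit. *BGIBMGA013198* had 14.79 FPKM in *nm2* and 13.94 FPKM in C603, and *BGIBMGA013199* had 14.11 FPKM in *nm2* and 21.50 FPKM in C603. *BGIBMGA013196* had 4.24 FPKM in *nm2* and 3.42 FPKM in C603, *BGIBMGA013197* had 3.57 FPKM in *nm2* and 5.77 FPKM in C603, and *BGIBMGA013195* had 3.42 FPKM in *nm2* and 0 in C603. No cut model at 5 FPKM or more counted as changed, and the median of the 5 was 0.08. A related gene outside the rule differed far more. The one cut domain family member 2-like gene *BGIBMGA000052*, whose vertebrate relatives act in liver and neurons, was listed at 0 in *nm2* and at 22.21 FPKM in C603, about 53 reads, at least 14.9-fold lower by the 95% interval of its reads and 19.0-fold lower if a floor of 3 counts stands in for the 0. The HNF6-like models of the same family, *BGIBMGA013353* and *BGIBMGA013354*, were also at 0 in *nm2*, with 0.61 and 1.29 FPKM in C603. This family was singled out after its values were seen.

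Zinc finger homeobox 3-like (*BGIBMGA012021*) had 4.87 FPKM in *nm2* and 7.25 FPKM in C603, and an unplaced model named after a nematode homeobox protein (*BGIBMGA004601*) 0 in *nm2* and 0.34 FPKM in C603. They were grouped with prospero and SIX4-like, and all 4 models of this group at 1 FPKM or more lay below 0.

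**Figure D3:**
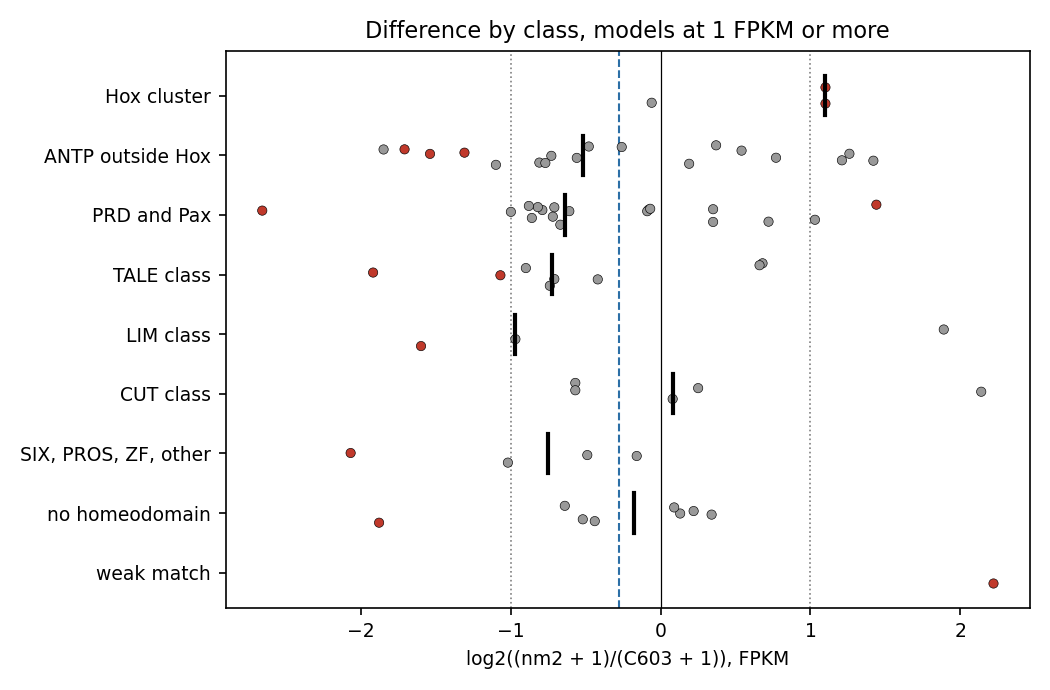
Log2((*nm2* + 1)/(C603 + 1)) of the 68 models at 1 FPKM or more in a library, 1 point per model and 1 line per class. Red points reached 5 FPKM and 2-fold, black bars are class medians, dotted lines mark a log2 difference of 1 in either direction and the blue dashed line is the median of all gene models, -0.28. The medians of the TALE class (-0.73), the PRD class and Pax (-0.64) and the ANTP class (-0.52) lie left of that line, and those of the CUT class (0.08) and the Hox cluster (1.10) lie right of it. The Hox median rests on 3 models, 2 of them the identical labial-like pair, and with the Hox genes of other names it was -0.25, with 6 of 9 models below 0.

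Of the proteins named after homeotic phenotypes or homeodomains, 1 of the 7 at 5 FPKM or more counted as different. The homeodomain-interacting protein kinase 2-like models, which encode a nuclear kinase, had 45.72 FPKM in *nm2* and 41.76 FPKM in C603 (*BGIBMGA009267*) and 33.84 FPKM in *nm2* and 26.43 FPKM in C603 (*BGIBMGA009266*). Pleiohomeotic, the DNA-binding Polycomb group protein, had 15.04 FPKM in *nm2* and 14.09 FPKM in C603 (*BGIBMGA011179*) and 9.02 FPKM in *nm2* and 12.63 FPKM in C603 (*BGIBMGA011178*). Polyhomeotic, a subunit of Polycomb repressive complex 1, had 5.80 FPKM in *nm2* and 9.58 FPKM in C603 (*BGIBMGA000509*) and 6.05 FPKM in *nm2* and 5.07 FPKM in C603 (*BGIBMGA000510*). None of these 6 models reached a 2-fold difference. A model named putative homeodomain transcription factor-like (*BGIBMGA000001*) had 2.37 FPKM in *nm2* and 3.84 FPKM in C603.

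Spalt-major-like (*BGIBMGA002946*) was the exception. It encodes a zinc finger protein that acts in trachea, wing, eye and sense organ development of *Drosophila*, and it had 5.28 FPKM in *nm2* and 22.17 FPKM in C603, a log2 difference of -1.88. Coding lengths were at hand for 2 of the 82 models, this one and *BGIBMGA002566*, both through the authors' list. That list holds differences of 2-fold or more that passed the authors' FDR limit. The other homeobox models that counted as higher or lower here were not in it. For spalt-major-like, about 89 reads in *nm2* stood against 346 reads in C603, 4.19-fold lower with a 95% interval of 3.31 to 5.35 for counting error only. The median log2 difference of these 8 models was -0.18, a direction that turned to 0.08 with the median gene set to 0.

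The most abundant model found by the rule may not be a homeobox gene. *BGIBMGA002566* had 105.85 FPKM in *nm2* and 22.01 FPKM in C603, a log2 difference of 2.22. About 630 reads in *nm2* stood against 122 reads in C603, 4.79-fold higher with a 95% interval of 3.94 to 5.87. Its name, brain-specific homeobox protein, comes from a tree shrew hit with an e-value of 3.47e-09, and no silkworm homeobox protein was its best hit. The B-H1-like model *BGIBMGA007872* has an e-value as weak, 8.74e-09, but a silkworm hit. Without *BGIBMGA002566* and with the labial-like pair counted once, 2 of 35 models were higher and 9 lower.

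Many of these genes are spread over several models, and the models did not always point the same way. Of the 82 models, 46 share a BLAST hit with another, in 20 groups. In 16 groups at least 2 models reached 1 FPKM, and in 6 of these (37.5%) the models lay on both sides of 0. The share was 29.8% of 1016 such groups among all gene models and 32.0% of 850 among those under 50 FPKM. With 16 groups, these shares do not set the homeobox models apart. The median distance between the highest and the lowest log2 difference of a group was 0.83, against 0.47 for all gene models and 0.50 for those under 50 FPKM. Level was not matched further, although the homeobox models had lower medians than all gene models. The part of low read numbers in this distance was not tested. The engrailed-like pair was the widest, with 2.96, and the cut-like models followed with 2.72. Bagpipe, Lhx1-like, Pax-8-like, prospero, pituitary homeobox 1 and orthopedia-like were among the hits whose models all had lower values in *nm2*, and the models of invected and of the homeodomain-interacting kinase all had higher ones. Setting the median gene to 0 turned 1 model each of prospero, orthopedia-like and pituitary homeobox 1 to slightly above 0. For the orthopedia-like model *BGIBMGA013947* and the pituitary homeobox 1 model *BGIBMGA010418* the ratio, 0.928, is again the one that equal read numbers give.

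**Figure D4:**
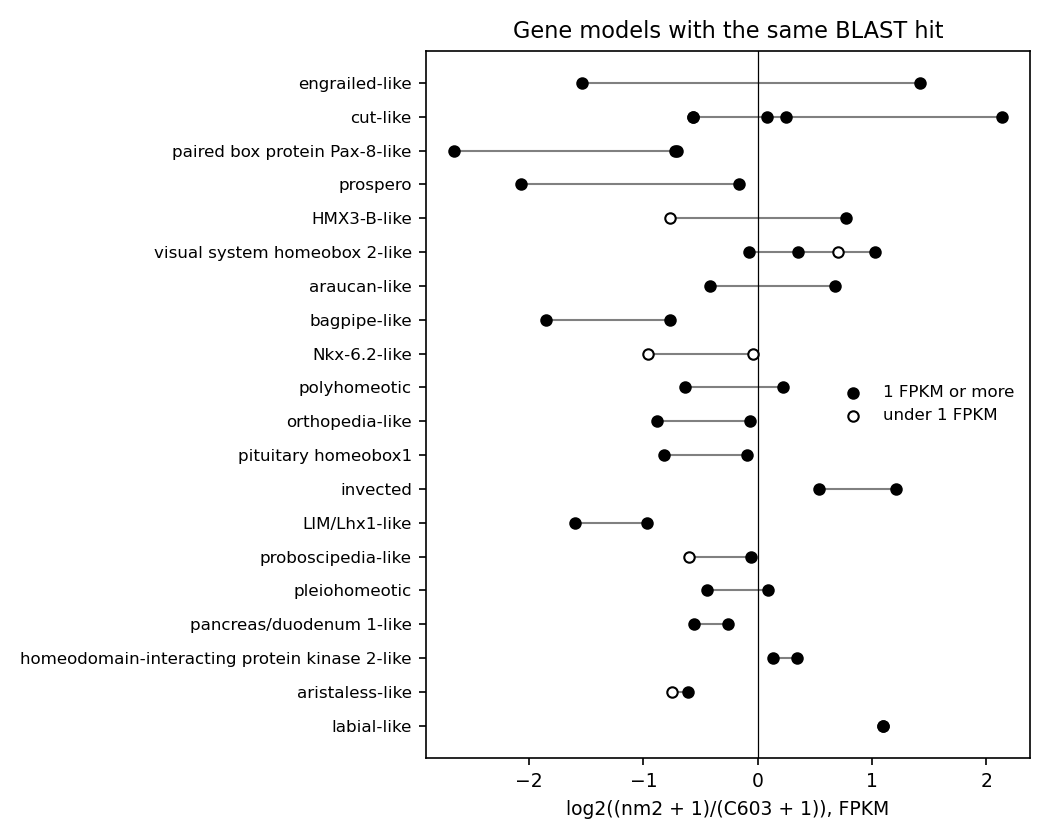
Log2((*nm2* + 1)/(C603 + 1)) of the 46 models that share a BLAST hit, 1 row per hit, ordered by the distance between the lowest and the highest model. Filled points reached 1 FPKM in a library and open points did not. The engrailed-like and cut-like rows cross 0 and are the widest, and the labial-like row holds 2 models on 1 point.

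A ratio of 1 read in *nm2* to 2 in C603 recurred among these models. Counting such ratios was not among the planned results, and the shares below were not matched for gene length. They do not show whether the ratio is a trait of homeobox genes. If a gene has the same number of reads in both libraries its FPKM ratio of *nm2* to C603 is 0.928, and 1 read in *nm2* for every 2 in C603 gives 0.464. Allowing 0.3% and the rounding of FPKM to 2 decimals, where that rounding moved the ratio by under 3%, 9 of the 64 models above 0 in both libraries (14.1%) had this ratio, against 1.34% of all gene models. Among models with a mean of 0.5 to 5 FPKM the shares were 22.9% and 3.73%. In that range the other ratios tried were about as frequent among the homeobox models as among all. Equal reads had 8.57% against 7.96%, and 2 *nm2* reads for 1 C603 read had 2.86% against 3.31%. Pax-1-like, unc-4-like, one each of the bagpipe, orthopedia-like, aristaless-like and pituitary homeobox 1 models, and Meis2 were among the 9, and Meis2 was the only one counted as lower. Meis2 has about 85.7 reads in *nm2* and 172 in C603 per 1000 bases. Its coding length was not at hand, so its number of reads is not known. For scale, a gene of 1000 effective bases with 2.5 FPKM in *nm2* and 5 FPKM in C603 would have about 10 reads in *nm2* and 19 in C603, a ratio of 0.489 with a 95% interval of 0.203 to 1.1, which includes equal expression.

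The regulators around the homeobox genes were read from lists of BLAST names trimmed by name after values had been seen. Polycomb and trithorax group proteins keep Hox genes silent or active. The lists, matched by name, held 12 models for the Polycomb group and 10 for the trithorax group and SWI/SNF at 5 FPKM or more. Of these, 0 were higher and 0 lower, and the median log2 differences were -0.26 and -0.29. Not every model on these lists is known to act on Hox genes, an example being enhancer of polycomb homolog 1-like. Polycomb itself (*BGIBMGA006904*) had 7.33 FPKM in *nm2* and 14.89 FPKM in C603, a difference of -0.93. In other families of developmental transcription factors the shares that counted as higher or lower were 28.6% (Sox, T-box and GATA), 33.3% (bHLH) and 25.0% (forkhead), against 23.8% of all gene models. Among the Sox, T-box and GATA factors 5 of 21 were lower and 1 higher, with SOX-4-like (*BGIBMGA004151*) at 2.66 FPKM in *nm2* and 14.74 FPKM in C603. Among the bHLH factors 5 of 18 were lower and 1 higher, with the tracheal regulator trachealess lower in both models, for example 11.47 FPKM in *nm2* and 29.91 FPKM in C603 for *BGIBMGA010185*. Among the forkhead factors 0 of 8 were lower and 2 higher, and FoxO (*BGIBMGA008094*), a mediator of insulin signalling, had 33.96 FPKM in *nm2* and 16.01 FPKM in C603.

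Adding the 28 homeobox genes of other names to the 82 models left the balance much as it was. Of the 50 models at 5 FPKM or more, 12 were lower (24.0%) and 6 higher (12.0%), and the median log2 difference of the 91 at 1 FPKM or more was -0.46. Among the added genes apterous A (*BGIBMGA002126*), a LIM gene of dorsal wing identity in *Drosophila*, had 5.44 FPKM in *nm2* and 1.95 FPKM in C603. Achintya (*BGIBMGA004158*), a TALE protein of the *Drosophila* germ line, had 25.60 FPKM in *nm2* and 29.74 FPKM in C603.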

How the data were processed

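Head RNA of 2nd instar pre-molting larvae was sequenced as 1 library for the *nm2* mutant and 1 for the wildtype C603, each a pool of 6 larvae. The authors filtered adapter and low-quality reads, aligned the clean reads to the SilkDB silkworm gene set and estimated abundance with RSEM, and the deposited table holds FPKM of 12376 gene models. Clean read counts and mapping percentages were used as the authors deposited them. The deposited columns of the authors' own comparison (fold changes, P-values, FDR, GO and KEGG results) were not used, except that coding lengths of 1727 genes were read from their table.

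The 82 models were found by the words homeobox, homeotic, homeodomain and paired box in the BLAST name. The models, classes and lists were chosen with earlier results of these data known. Values were compared as log2((*nm2* + 1)/(C603 + 1)) with a pseudocount of 1 FPKM, which understates the change of low genes. A model was called at 5 FPKM or more and a log2 difference of 1 or more in size, and medians used models at 1 FPKM or more. No test was made because each strain has 1 library. Named models were those called, the Hox cluster, the 10 of highest mean, the 10 of largest difference at 1 FPKM or more, those with identical values and those that share a hit. Others are named for their role or to account for every model, and homeobox genes of other names were picked after their values were seen. Library totals behind the FPKM were recovered as the totals that make FPKM times coding length, less 36 bases, a whole number of reads, 4048000 for *nm2* and 3758000 for C603. Of 313 *nm2* values and 207 C603 values of at most 20 reads, 96.2% and 89.9% came within 0.1 of a whole read. These totals are well below the reads aligned to genes, which lay outside the range searched, and serve as a scale for counting error. The search was tested on simulated reads with a total close to the one found. That test lay within the same range, so it cannot show that the scale itself is right. Ratios have exact conditional binomial 95% intervals, which cover counting error only, since PCR copies are not independent molecules. RefSeq names were matched by protein accession for 30 models on assembly ASM3026992v2, which differs from the authors' build, so it served for names and gene order only. The alternatives were TPM scaling, setting the median gene to 0, scaling on 3 housekeeping genes, pseudocounts of 0.1 and 0.5 FPKM, minimums of 0, 1, 5 and 20 FPKM, 1 value per BLAST hit, identical values counted once, and leaving out names without a homeodomain. The scripts ran in Python 3.11.15 with SciPy 1.17.1, pandas 2.3.3, matplotlib 3.10.9 and NumPy 2.4.6.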

Additional observations from a re-analysis of the deposited data

How the results depend on the processing

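Of 70 recomputed summary values, 62 stayed within the limits set for them, 1.5 times for a count or share and 0.1 for a median. Setting the median gene to 0 multiplied every *nm2* value by 1.22, a shift of 0.28 on the log2 scale before the pseudocount, and brought the median of the homeobox models to -0.27, with all gene models at -0.02. The count of higher models, 4 with the minimum of 5 FPKM, was 10 with no minimum and 10 with a minimum of 1 FPKM. Without *BGIBMGA002566* and with identical values counted once it was 2. With a minimum of 20 FPKM, 1 model was higher and 2 were lower, against 4 higher and 9 lower, and the classes with a median below 0 numbered 2 of 4, against 6 of 9, because fewer models are left. With a pseudocount of 0.1 FPKM the median distance between models that share a hit was 1.1, against 0.83. Among the 56 named models, 6 changed sign with the median gene set to 0, none of them counted as higher or lower. None changed sign under the other scalings and pseudocounts. Models that counted could not change sign, since a pseudocount keeps the sign and the largest scaling shift, 0.28, is below the limit of 1. TPM scaling took the empty spiracles-like and a Pax-8-like model under 5 FPKM, and setting the median gene to 0 brought Meis2 to -0.80. A pseudocount of 0.1 FPKM brought orthopedia-like *BGIBMGA013948* to -1.08. Alternatives without *BGIBMGA002566*, alone or with identical values counted once, and with homeobox genes of other names were added after the data had been seen. Depth limits the weak genes most, since a 2-fold difference at 5 FPKM can lie within counting error. No paired analysis was possible because each strain has 1 library.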
